A study of Elaeis guineensis with 18 samples.

Results

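The deposited read count tables of oil palm (Elaeis guineensis) leaves held 30606 genes, of which 29750 carried a numeric gene identifier and 856 were added gene models with identifiers of the form Novel00001. The 200 added models described here were chosen by their mean CPM (counts scaled to a library total of 1000000), as the 200 with the highest mean over the 18 libraries, so their levels and ranks are given without a test. A further 16654 numbered genes had a mean CPM inside the range of these 200 members and are set beside them as genes of similar level.

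The libraries came from the third leaf of wildtype Deli Dura seedlings, with 3 libraries for each of 6 groups and the leaves of 3 seedlings pooled in each replicate. Control seedlings received 200 mL of water a day at 28 °C. For 2 weeks, drought seedlings received 0 mL, salinity seedlings received 200 mL of 0.2 M NaCl a day, and waterlogging seedlings (Flood in the labels) had the soil covered by 1 inch of water, all at 28 °C. Heat seedlings were kept at 40 °C and cold seedlings at 10 °C, both with 200 mL of water a day.

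A gene model that is added to a reference annotation usually comes from RNA-seq reads that align where the annotation lists no gene. Such a model may be a protein-coding gene that the annotation missed, a long non-coding RNA, a transcript of a transposable element, or an exon or untranslated end of a neighbouring gene. Abiotic stress is a common setting for finding them, because a gene that is nearly silent in unstressed tissue gives few transcripts from which an annotation could be built. By identifier, none of the 200 members matched an entry of the RefSeq gene table of oil palm (0 of 200). The members were selected as carrying added identifiers, so this was fixed in advance and does not show that their loci are absent from that table. No description, coordinate or sequence of them was used here. Their names below are therefore only identifiers, and no function is attached to any of them.

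Total counts per library ranged from 14839345 to 22126971, and the TMM factors that scale these totals ranged from 0.784 to 1.36, with the highest in the 3 cold libraries. All 21 light-harvesting antenna genes used as leaf markers had reads in every library. Their summed level was 26800 to 54100 CPM in control, 44200 to 71300 in drought, 74100 to 118000 in salinity, 103000 to 136000 in waterlogging, 46200 to 60200 in heat and 13600 to 17100 in cold, and its part in the results below was not tested. Levels below are TMM-scaled CPM unless FPKM is named. Scaling by library totals in place of TMM shifted the median log2 fold change of all tested genes to -0.33 (drought), -0.36 (salinity), -0.46 (waterlogging), -0.14 (heat) and 0.31 (cold), whereas with TMM these medians lay between -0.05 and 0.02.

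The members spanned a wide range of abundance. By the mean CPM of the selection rule they ran from 4.356 to 1796, with a median of 10.7; 14 members reached 100 CPM and 94 were under 10 CPM. The 10 most abundant members held 56.5% of the CPM of all 200. On the FPKM scale, which also divides by gene length and so allows a comparison between genes, the members had a median level of 11.1. The numbered genes with a CPM inside the members' range had a median of 13.0. Their levels were not matched within that range. From 22.7 CPM upward lay 8467 of these 16654 genes, but only 50 of the 200 members. The medians thus do not compare genes at equal CPM. The last members inside the limit, Novel00403 and Novel00549, had a mean CPM of 4.428 and 4.356, and the first models outside it, Novel00384 and Novel00773, had 4.343 and 4.331. All but 2 members had reads in all 18 libraries, and each of the 200 had at least 1527 reads in total. The exceptions were Novel00769, with 0 reads in control replicate 1, and Novel00098, with 0 reads in waterlogging replicate 1.

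The members were short. The length that the FPKM values imply ran from 219 to 10385 nt, with a median of 978.5 nt, against 1735 nt for the numbered genes of similar level and 952 nt for the added models of lower level. Under 1000 nt were 104 members (52.0%), compared with 14.6% of the numbered genes of similar level. The longest member, Novel00001, was 10385 nt, and the most abundant, Novel00299, was 608 nt. With the members put into 4 length classes of 50, 54% of the shortest class (219 to 696 nt), 70% of the second, 64% of the third and 60% of the longest (1850 to 10385 nt) were DEGs under at least 1 stress. In the same length ranges 48.6%, 44.6%, 42.9% and 35.7% of the numbered genes of similar level were. Of all tested genes in these ranges, 52.4%, 49.5%, 48.2% and 41.8% were, so the shortest class was near that background. The classes also hold the 26 members that entered the list through their level under stress, as set out below.

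A differentially expressed gene (DEG) had a Benjamini-Hochberg adjusted p under 0.05 in edgeR's quasi-likelihood test and a fold change of at least 2. All 200 members passed the filter on low counts, as did 23830 genes in all. Because whole leaf tissue was sequenced, more or fewer cells of a type and more or less RNA per cell cannot be told apart. Under drought, 33 members were upregulated and 16 downregulated, which is 16.5% and 8.0% of the members against 10.7% and 6.93% of all tested genes. Salinity upregulated 31 and downregulated 18 members, 15.5% and 9.0%, against 10.5% and 4.91% of all genes. Waterlogging upregulated 28 and downregulated 29, 14.0% and 14.5%, against 12% and 7.53%. The upregulated shares rest in part on members that entered the list through their level under stress, as set out below, and nothing is read from these upregulated shares.

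The temperature stresses had more downregulated than upregulated members. Heat upregulated 23 and downregulated 44 members, 11.5% and 22.0%, against 11.5% and 8.66% of all tested genes. Cold upregulated 25 and downregulated 42, 12.5% and 21.0%, against 13.1% and 12%. The downregulated share was above the background under both temperature stresses, as it also was under drought, salinity and waterlogging. This is a description with no test. All 5 comparisons share the 3 control libraries, so their counts are not independent of each other.

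Beside numbered genes of similar level, with the 4 level classes of the members weighted equally, the shares were as follows. Among those numbered genes, drought gave 9.46% higher and 6.01% lower, salinity 9.29% and 4.06%, waterlogging 11% and 6.14%, heat 10.1% and 7.79%, and cold 11.2% and 11.4%. The medians that follow also include the members that entered through their level under stress. For the numbered genes they were taken over all 16654 without that weighting. The same holds for other values of these genes wherever the weighting or a single class is not named. The median absolute log2FC of the members was 0.57 for drought (0.38 in the numbered genes of similar level), 0.53 for salinity (0.39), 0.67 for waterlogging (0.44), 0.68 for heat (0.45) and 0.62 for cold (0.52). The median signed log2FC of the members was close to that of all genes, at -0.12 against -0.05 under drought, -0.01 against -0.04 under salinity, -0.07 against -0.05 under waterlogging, -0.12 against 0.00 under heat and -0.17 against 0.02 under cold. The 544 tested models of lower level had 8.46% higher and 14.7% lower under drought, and 8.09% higher and 21.1% lower under heat. They had 7.9% higher and 15.4% lower under salinity, and 7.54% and 21.0% under waterlogging. Under cold they had 15.3% higher and 15.4% lower.

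**Figure D1:**
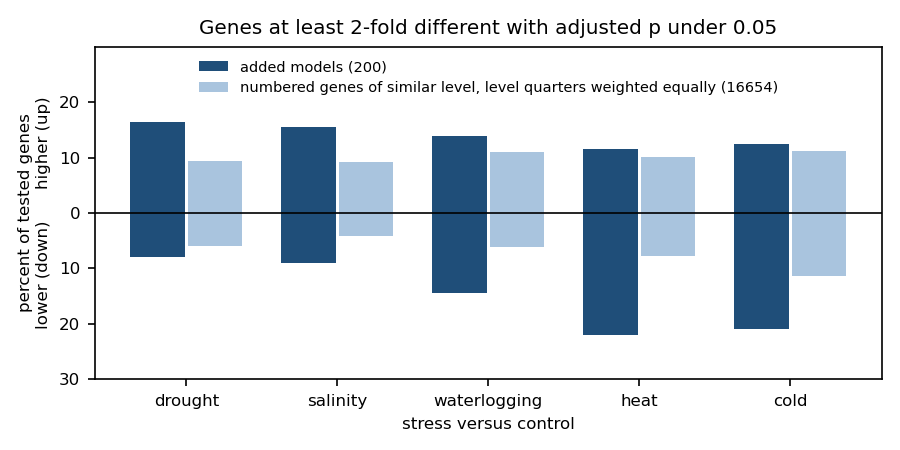
Percent of tested genes that were higher (bars upward) or lower (bars downward) than control for each stress, in the 200 added models (dark bars) and in the 16654 numbered genes of similar level with their 4 level classes weighted equally (light bars). The downward dark bars are longest under heat (22.0%) and cold (21.0%), and the upward dark bars include members that entered the list through their level under stress.

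The upregulated counts depend on how the members were chosen. A ranking on the control libraries alone shared 174 models with the members, and the other 26 members had entered through their level under stress. These 26 supplied 14 of the 33 members upregulated by drought, 17 of 31 under salinity, 12 of 28 under waterlogging, 9 of 23 under heat and 10 of 25 under cold. They supplied 0 of the downregulated members under drought, salinity and waterlogging, 1 under heat and 2 under cold. Among the 174 members that both rankings held, which were set apart after seeing the data, upregulated members made up 10.9% for drought (10.7% of all tested genes), 8.05% for salinity (10.5%), 9.2% for waterlogging (12%), 8.05% for heat (11.5%) and 8.62% for cold (13.1%). Upregulated members were thus near the background under drought and below it under the other stresses in this set. Downregulated members made up 9.2% for drought (6.93% of all genes), 10.3% for salinity (4.91%), 16.7% for waterlogging (7.53%), 24.7% for heat (8.66%) and 23% for cold (12%). The control ranking in turn favours models that are high in control, so neither set gives an unbiased share.

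The split of higher and lower members also depended on the scaling. With TMM, 67.3% of the members called for drought were higher, as were 63.3% for salinity, 49.1% for waterlogging, 34.3% for heat and 37.3% for cold. With library totals these shares were 40.0%, 35.6%, 28.8%, 27.3% and 50.8%, because 20 members were then higher and 30 lower under drought, 21 and 38 under salinity, 21 and 52 under waterlogging, 18 and 48 under heat, and 33 and 32 under cold. The majority therefore changed sides under drought, salinity and cold, while lower calls outnumbered higher ones under waterlogging and heat with either scaling. Of the members named below, library totals ended the waterlogging calls of Novel00001, Novel00775, Novel00201 and Novel00780, the heat calls of Novel00368, Novel00216 and Novel00517, the drought calls of Novel00328 and Novel00078, the salinity call of Novel00328 and the cold calls of Novel00201 and Novel00780, and turned no direction.

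In all, 124 members (62.0%) were DEGs under at least 1 stress, against 45.9% of all tested genes and 39.9% of the numbered genes of similar level, and 102 of the 174 members held by both rankings were (58.6%). Of the 124, 57 were only higher, 61 only lower and 6 moved in both directions. No share over all tested genes is set beside these directions, so nothing is read from them. A single stress called 46 members (23%, against 21% of all tested genes), 2 stresses 30 (15%, against 9.84%), 3 stresses 21 (10.5%, against 6.56%), 4 stresses 15 (7.5%, against 5.11%) and all 5 stresses 12. These 12 members are 6.0% of the 200, against 3.4% of all tested genes and 3.25% of the numbered genes of similar level. Of the 12, 5 had entered through their level under stress, and the other 7 are 4.02% of the 174 members held by both rankings, near the background. These 5 are Novel00769, Novel00255, Novel00078, Novel00406 and Novel00390, the lowest of the 12 in control. The selection favoured their rises, and the adjusted p-values given for these below do not allow for it. Within the 12, 5 were higher under every stress, 5 were lower under every stress, and 2 were higher under 4 stresses and lower under cold. That split likewise has no share over all tested genes beside it.

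**Figure D2:**
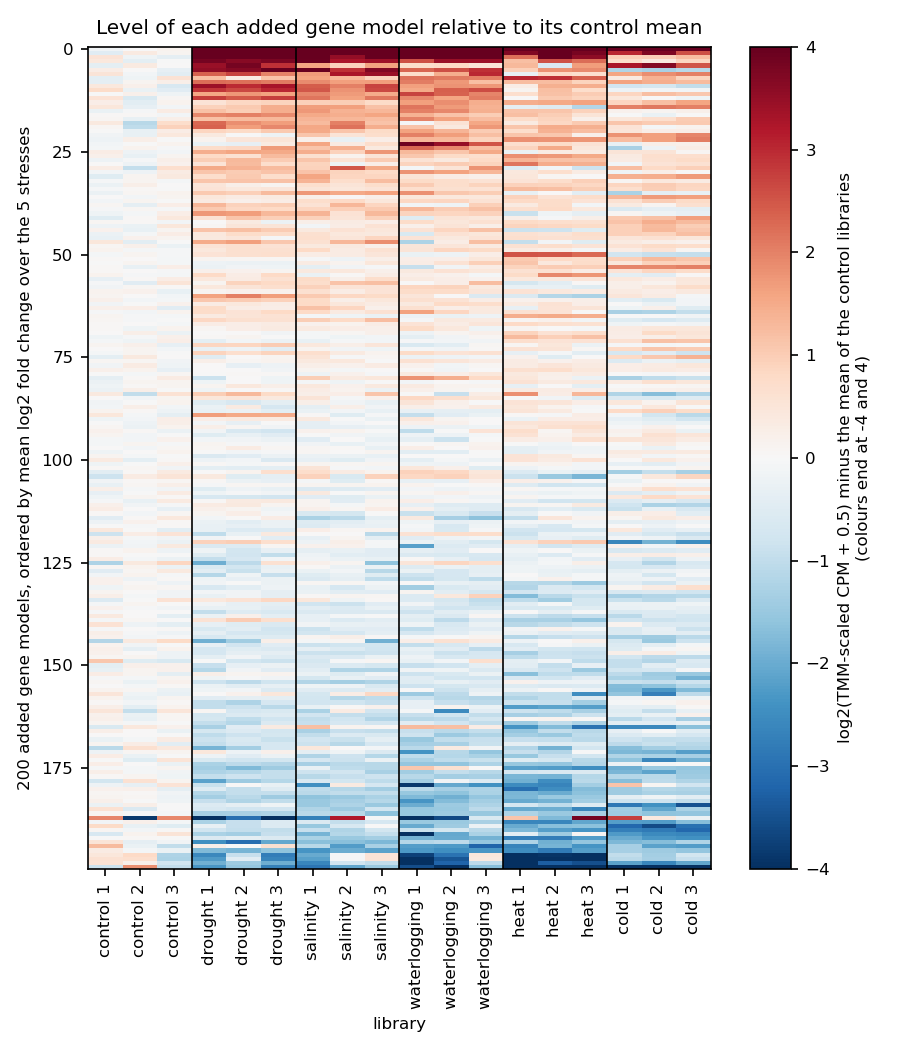
Level of each of the 200 added models (rows, ordered by mean log2 fold change over the 5 stresses) in each of the 18 libraries (columns), as log2 of TMM-scaled CPM plus 0.5 minus the mean of the 3 control libraries. Red is above and blue below control, and the few rows whose colour changes within a group of 3 libraries are members with a large spread between replicates, such as Novel00241.

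Novel00299 was the most abundant member, with a mean of 2950 FPKM. Its level was 646, 697 and 769 CPM in the control libraries and 10400, 7820 and 4000 CPM in the waterlogging libraries. All waterlogging libraries lay above every other library of the series, and replicate 3 was the lowest of them. The log2FC was 3.4 ± 0.37 (SE, n = 3, adjusted p = 3.84e-06, edgeR). Under salinity it had 2110, 901 and 1150 CPM, all above the control libraries, with a log2FC of 0.98 (adjusted p = 0.029, edgeR) that stayed under 2-fold. Without salinity replicate 2 this log2FC was 1.22 and without salinity replicate 3 it was 1.10, both past the threshold. With DESeq2's size factors, with DESeq2 and with separate fits it was 1.0, and salinity was called in each. Drought, with 579, 554 and 898 CPM, overlapped control. In the main fit Novel00299 was 1 of 2 members upregulated by waterlogging alone, and it also differed directly from each of the other 4 stresses. Its restriction to waterlogging against control thus depends on the fit.

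Novel00105, the next in abundance at 648 FPKM, was higher under every stress. The control libraries had 22.7, 40.3 and 33.7 CPM and the drought libraries 1420, 2460 and 2720 CPM. Salinity gave 1260, 556 and 509 CPM, waterlogging 721, 979 and 611 CPM, heat 411, 516 and 446 CPM, and cold 258, 420 and 191 CPM. No stressed library came near the control range. The log2FC was 6.09 ± 0.46 (drought), 4.59 ± 0.43 (salinity), 4.58 ± 0.43 (waterlogging), 3.83 ± 0.41 (heat) and 3.17 ± 0.40 (cold) (SE, n = 3, largest adjusted p = 9.41e-06, edgeR). Its drought level also exceeded its salinity level directly, as 1 of 6 such members.

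Novel00769 was nearly absent from control leaves. Its 3 control libraries held 0, 0.0514 and 0.101 CPM, which is 3 reads in all, while the drought libraries had 84.0, 125 and 174 CPM and the waterlogging libraries 393, 193 and 101 CPM. Salinity gave 174, 109 and 78.7 CPM, heat 20.3, 44.9 and 20.2 CPM, and cold 17.6, 31.4 and 33.1 CPM. Every stressed library thus lay far above every control library. With so few control reads the ratio is known only loosely. It was 4610 for waterlogging (95% exact binomial interval for counting error 1580 to 22400), 2450 for drought (838 to 11900), 2310 for salinity (791 to 11200), 562 for heat (192 to 2730) and 536 for cold (183 to 2600). The largest of its 5 adjusted p-values was 1.37e-06 (edgeR). Novel00769 had entered the list through its level under stress, so the selection favoured this rise and the p-values do not allow for it.

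The other 3 members that rose under all 5 stresses were Novel00255, Novel00216 and Novel00078. Of these, Novel00255 and Novel00078 had entered the list through their level under stress, so the selection favoured their rises. Novel00255 had 2.57, 1.34 and 1.11 CPM in control and 60.3, 70.7 and 61.6 CPM under drought, a log2FC of 5.26 ± 0.47 (SE, n = 3, adjusted p = 6.1e-07, edgeR). Its cold libraries, at 3.5, 3.61 and 4.36 CPM, were only just above control, and this call (log2FC 1.19, adjusted p = 0.0416, edgeR) was lost without any 1 of 9 libraries, among them control replicates 2 and 3 and each cold replicate. Novel00216 went from 7.24, 10.2 and 11.1 CPM in control to 45.9, 45.3 and 41.0 CPM under drought, and its heat call (log2FC 1.14) fell to 0.98 without control replicate 1. Novel00078 was highest under heat, with 12.8, 12.2 and 7.93 CPM against 0.755, 0.977 and 1.97 CPM in control, a log2FC of 3.14 ± 0.39 (SE, n = 3, adjusted p = 1.11e-05, edgeR). Its calls under drought (log2FC 1.14) and cold (1.12) were each lost when control replicate 1 or 2 was left out, where the log2FC ranged from 0.87 to 1.0. The drought call was also lost without drought replicate 1 (0.96) or 3 (1.02), and the cold call without cold replicate 2 (0.77).

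The 5 members that fell under every stress were Novel00190, Novel00655, Novel00120, Novel00104 and Novel00324. Novel00190 had 62.0, 47.2 and 41.1 CPM in control and 8.45, 6.45 and 10.3 CPM under heat, with a log2FC of -2.58 ± 0.17 (SE, n = 3, adjusted p = 2.28e-08, edgeR). Its other stressed libraries lay between 8.69 and 19.3 CPM, all below control, and the log2FC ran from -1.47 under cold to -2.43 under waterlogging. Novel00655 had 8.46 to 18 CPM in the stressed libraries against 37.1, 36.5 and 32.0 CPM in control. Its log2FC of -1.04 under drought and -1.03 under salinity sat at the 2-fold limit, and both calls were lost without control replicate 1 (-1.0 and -0.99), as were the first without drought replicate 1 (-0.96) and the second without salinity replicate 1 (-1.0).

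Novel00120 had 10.4, 9.36 and 9.06 CPM in control and 2.75 to 4.27 CPM in the 15 stressed libraries. The log2FC of this member lay between -1.68 and -1.36 under the 5 stresses, a narrow band with no overlap with control in any comparison. Novel00104 was lowest under drought, at 1.63, 0.898 and 2.34 CPM against 16.0, 8.48 and 10.1 CPM in control, a log2FC of -2.83 ± 0.33 (SE, n = 3, adjusted p = 8.55e-06, edgeR). For Novel00324 control replicate 2 stood apart, with 130 CPM beside 19.7 and 17.8 CPM in the other control libraries, and cold had 0.365, 0.674 and 0.488 CPM. Its log2FC under cold was -6.77 ± 0.97 (SE, n = 3, adjusted p = 3e-05, edgeR) and -5.20 without that library. Without the same library its drought and salinity calls were lost, with a log2FC of -1.25 and -1.17 in place of -2.82 and -2.74, and its waterlogging and heat values shrank from -3.52 to -1.94 and from -5.45 to -3.88.

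The temperature stresses pulled 3 members in opposite directions, Novel00406, Novel00390 and Novel00517. This count has no share over all tested genes beside it, and nothing is read from its size. Novel00406 and Novel00390 had entered the list through their level under stress, so the selection favoured their rises. Novel00406 had 2.26, 1.75 and 1.27 CPM in control, 25.7, 27.9 and 35.2 CPM under drought, 35.8, 16.3 and 28.7 CPM under salinity, 10.6, 12.7 and 16.5 CPM under waterlogging, 3.84, 7.15 and 7.70 CPM under heat, and 0.474, 0.397 and 0.526 CPM under cold. Heat libraries were all above control and cold libraries all below it. The log2FC was 4.07 ± 0.33 under drought, 1.82 ± 0.33 under heat and -1.90 ± 0.41 under cold (SE, n = 3, largest adjusted p = 0.00109, edgeR), and the direct difference of heat and cold was 3.72 ± 0.38 (adjusted p = 1.27e-06, edgeR). Novel00390 moved the same way, from 1.71, 1.39 and 0.557 CPM in control to 17.2, 12.6 and 15.5 CPM under drought and 0.474, 0.515 and 0.338 CPM under cold. Its cold call (log2FC -1.45) was lost without control replicate 1 (-1.13, adjusted p = 0.0636, edgeR). Novel00517 had 12.6, 4.52 and 14.4 CPM in control, 35.0, 11.8 and 24.6 CPM under heat and 3.79, 2.54 and 3.68 CPM under cold. Its heat libraries overlapped control, and the heat call (log2FC 1.18) was lost without control replicate 2, heat replicate 1 or heat replicate 3.

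The other 3 members that moved in both directions, chosen after their values were seen, were Novel00201, Novel00780 and Novel00484. Novel00201 had 53.3, 70.7 and 87.1 CPM in control, 239, 189 and 120 CPM under waterlogging and 28.0, 34.2 and 36.9 CPM under cold, and its cold call (log2FC -1.09) was lost without control replicate 3 (-0.91) or cold replicate 1 (-0.99). Novel00780 also rose under waterlogging (log2FC 1.07) and fell under cold (-1.21), but the waterlogging call was lost without waterlogging replicate 1 (0.67). Novel00484 rose under drought, from 4.88, 4.58 and 4.10 CPM to 14.7, 19.9 and 15.5 CPM, and fell under heat to 2.86, 1.78 and 1.57 CPM. Its heat call (log2FC -1.13) was lost without heat replicate 3 (-0.96).

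**Figure D3:**
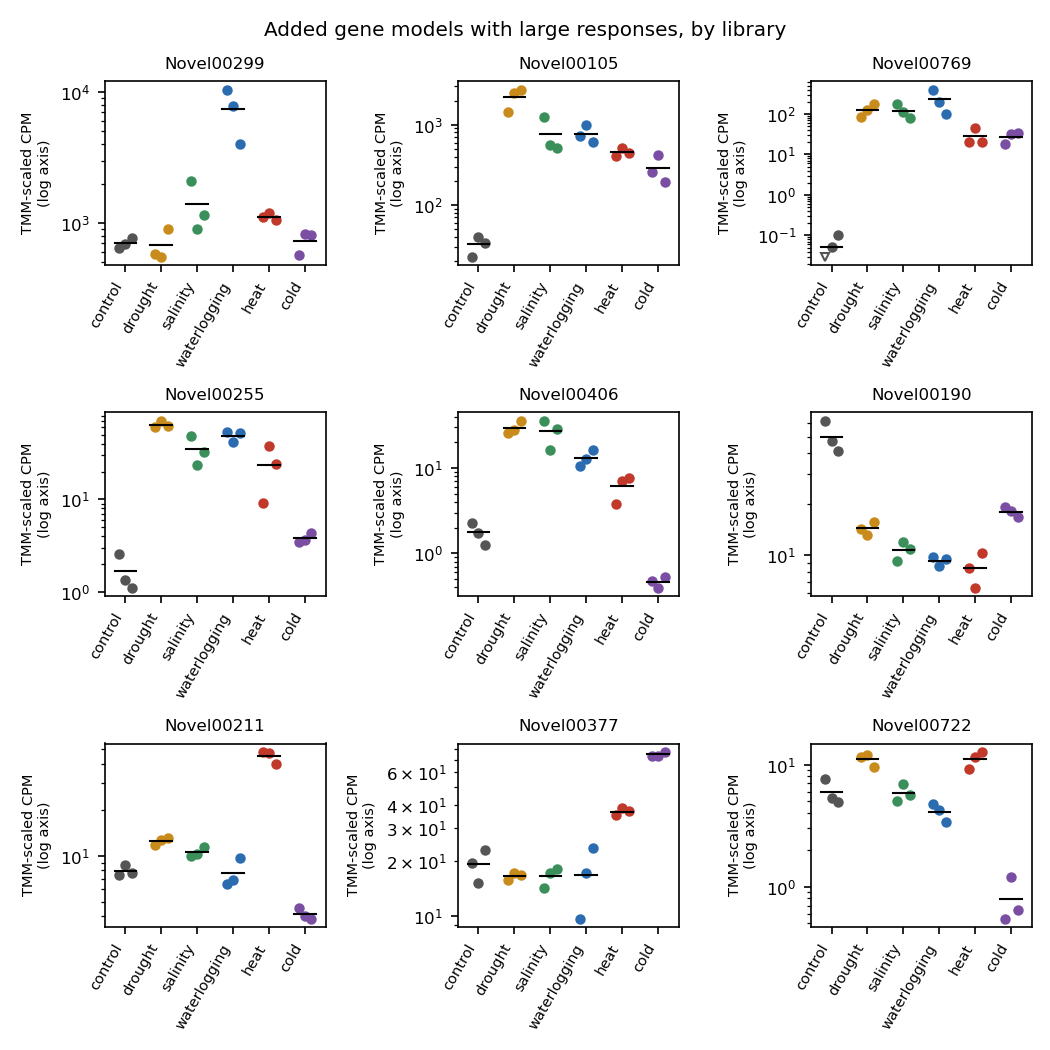
TMM-scaled CPM of 9 added models in each library (points, log axis, a scale of its own in each panel), with the mean of each group as a line. The open triangle for Novel00769 marks a control library with 0 reads, and the waterlogging points of Novel00299 (4000 to 10400 CPM) and the drought points of Novel00105 (1420 to 2720 CPM) lie above all their other groups.

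Among members called under a single stress, heat downregulated 12 and upregulated 7, and cold upregulated 11 and downregulated 8. Drought alone upregulated 2 and downregulated 1, salinity alone also 2 and 1, and waterlogging alone upregulated 2 and downregulated 0. These were 1.0% and 0.5% of the members for drought, against 1.12% and 1.32% of all tested genes. Salinity alone had 1.0% and 0.5% (against 0.352% and 0.298%), and waterlogging alone 1.0% and 0% (against 1.5% and 1.28%). Of all tested genes, heat alone lowered 2.26% and raised 2.74%, against 6% and 3.5% of the members, and cold alone raised 5.28% and lowered 4.88%, against 5.5% and 4%. A call under 1 stress does not show a difference from the others, so each was also compared directly with the other 4 stresses. Of the 46 members, 10 passed every direct comparison in the same direction (21.7%, against 23.4% of the 5012 genes called under a single stress), a share near the background. They were 1 for drought (Novel00506), 0 for salinity, 1 for waterlogging (Novel00299), 5 for heat (Novel00211 and Novel00035 higher, Novel00067, Novel00023 and Novel00260 lower) and 3 for cold (Novel00377 higher, Novel00722 and Novel00750 lower), all named for this after their values were seen. Of the members, 0.5% passed as higher under drought (0.0839% of all tested genes) and 0.5% under waterlogging (0.0252%). Heat had 1.0% higher (0.957%) and 1.5% lower (0.302%), and cold 0.5% higher (1.71%) and 1.0% lower (1.67%). Such shares rest on few members, and nothing is read from them. For Novel00023 the drought value (log2FC -2.21) also passed the threshold with library totals, with separate fits and without drought replicate 2 or waterlogging replicate 1 or 3, and that of Novel00067 (-1.77) without waterlogging replicate 3. Separate fits called both under cold as well (-1.29 and -1.39), and waterlogging called both without its replicate 3, so their restriction to heat depends on the fit. Novel00377 was also called under heat without control replicate 3 (1.09), and Novel00211 under cold without cold replicate 1 (-1.02). Novel00506 was called lower under waterlogging with library totals (-1.01) and under cold without cold replicate 1 (-1.01). Their restriction to 1 stress thus depends on the fit too.

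Novel00211 was the clearest heat response of these. Its heat libraries had 47.7, 47.2 and 39.8 CPM, its control libraries 7.49, 8.69 and 7.74 CPM, and its cold libraries 4.52, 4 and 3.87 CPM. The highest of the remaining libraries was a drought library at 13.0 CPM, so heat did not overlap any group. The log2FC under heat was 2.49 ± 0.14 (SE, n = 3, adjusted p = 2.11e-09, edgeR). Novel00035 rose from 10.2, 9 and 8.81 CPM to 26.3, 27.4 and 26.4 CPM under heat, a log2FC of 1.52 ± 0.10 (SE, n = 3, adjusted p = 1.15e-08, edgeR).

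For cold, Novel00377 had 73.7, 73.4 and 77.2 CPM against 19.3, 15.1 and 22.9 CPM in control, a log2FC of 1.97 ± 0.22 (SE, n = 3, adjusted p = 2.66e-06, edgeR). Its heat libraries, at 35.1, 38.3 and 36.9 CPM, lay between control and cold without overlap, with a log2FC of 0.94. Novel00722 had 0.547, 1.19 and 0.639 CPM under cold against 7.55, 5.30 and 4.91 CPM in control, a log2FC of -2.90 ± 0.27 (SE, n = 3, adjusted p = 4.98e-07, edgeR). Drought and heat gave this member 9.59 to 12 CPM and 9.13 to 12.7 CPM, above control in every library. Both log2FC values, 0.90 and 0.91, were under 2-fold and passed it without control replicate 1 (1.12 in each, and for heat also 1.05 without heat replicate 1). Novel00750 fell from 8.05, 7.66 and 6.02 CPM in control to 1.75, 1.07 and 1.77 CPM under cold. The drought member, Novel00506, had 31.8, 28.6 and 27.6 CPM under drought and no more than 13.2 CPM in any other library.

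Several of the largest falls under single stresses came from members called under more than one. Under cold, Novel00398 fell from 82.9, 39.6 and 34.5 CPM to 5.10, 3.57 and 5.71 CPM (log2FC -3.45) and Novel00513 from 20.8, 29.0 and 24.1 CPM to 2.92, 4.12 and 1.73 CPM (-3.08). The waterlogging call of Novel00398 (-1.16, adjusted p = 0.0434, edgeR) was lost when control replicate 1 or either of waterlogging replicates 1 and 2 was left out, or any 1 of 6 libraries of other stresses, and the log2FC was -1.85 without waterlogging replicate 3. Under waterlogging, Novel00016 fell from 46.5, 15.6 and 9.31 CPM to 3.73, 3.60 and 1.61 CPM (log2FC -2.98, and -2.05 without control replicate 1). Without that library its salinity call was lost, with a log2FC of -0.93 in place of -1.87. Novel00376 rose under drought, from 0.503, 1.18 and 0.810 CPM to 13.9, 17.8 and 9.28 CPM (log2FC 4.03), and under cold to 12, 16 and 6.99 CPM (3.80), while its waterlogging libraries had 1.60, 1.74 and 1.38 CPM. It too had entered the list through its level under stress, so the selection favoured these rises.

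The 10 most abundant members did not share a response. Novel00345 rose under drought, salinity, waterlogging and cold, from 148, 170 and 131 CPM in control to 973, 761 and 575 CPM under waterlogging (log2FC 2.36 ± 0.20, SE, n = 3, adjusted p = 5.46e-07, edgeR), and the cold call (1.05) was lost without control replicate 3 (0.96) or cold replicate 2 (0.97). Novel00001 rose under heat to 379, 373 and 365 CPM, under cold to 254, 337 and 441 CPM and under waterlogging to 271, 263 and 201 CPM, from 92.5, 125 and 106 CPM in control. Its drought and salinity levels, 87.4 to 152 CPM, overlapped control. Novel00775 was higher in every library of drought, salinity, waterlogging and heat than in control and lower in every cold library, but only waterlogging (log2FC 1.18) passed 2-fold. Novel00368 rose under drought (1.83), salinity (1.56) and heat (1.15), and the heat call was lost without control replicate 1 or 2 or heat replicate 2 or 3. Novel00328 rose under drought (1.37) and salinity (1.31). Its drought call was lost without control replicate 2 or 3 or drought replicate 1 or 2, and its salinity call without control replicate 2 or 3 or salinity replicate 2 or 3, with a log2FC of 0.97 to 1.33 over these.

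Novel00152, Novel00234 and Novel00502 were not DEGs under any stress. Novel00234 had 200, 256 and 285 CPM in control and 172, 141 and 146 CPM under heat, without overlap, with a log2FC of -0.69 (adjusted p = 0.000332, edgeR) that stayed under 2-fold. Of the 76 members that no stress called, the 4 with the smallest largest change were Novel00693, Novel00111, Novel00454 and Novel00789. Novel00111 lay between 27.9 and 43.8 CPM in all 18 libraries, with a log2FC from -0.19 to 0.14. A missed threshold does not show that these members kept the same level.

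The stresses were also compared with each other. Salinity and waterlogging differed in 3 members (1.5%, against 0.621% of all tested genes), drought and salinity in 6 (3.0%, against 2.77%), and drought and waterlogging in 21 (10.5%, against 7.02%). The background was 1.14% for genes higher under drought than salinity and 0.256% for genes lower under salinity than waterlogging. Heat and cold differed in 53 members (26.5%, against 22.1%), with 29 higher under heat and 24 higher under cold (14.5% and 12%, against 12.4% and 9.79%). Drought differed from heat in 54 members (27.0%, against 16.5%) and from cold in 66 (33.0%, against 26.9%). In those 2 pairs drought was mostly the higher side, with 43 of 54 members over heat (21.5% of the members, against 8.29% of genes) and 48 of 66 over cold (24%, against 14.2%). Of these, 15 of the 43 and 8 of the 48 had entered the list through their level under stress, and among the 174 members held by both rankings the shares were 16.1% and 23%, with 21.8% and 32.8% called in either direction. Salinity differed from heat in 50 members (against 14.1% of genes) and from cold in 58 (23.3%). Waterlogging differed from heat in 45 (16.0%) and from cold in 53 (24.8%). These pairs also hold members that entered through their level under stress, with 13 of the 53 for heat and cold. Among the 174 members, heat and cold differed in 23.0%, near the background, and drought and waterlogging in 9.77%. Salinity differed from heat in 20.1% of the 174 and from cold in 28.2%. Waterlogging differed from heat in 19.0% and from cold in 23.6%, the last below the background.

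All 6 members that differed between drought and salinity were higher under drought, namely Novel00376, Novel00016, Novel00506, Novel00105, Novel00329 and Novel00513. The 3 that differed between salinity and waterlogging, Novel00299, Novel00088 and Novel00001, were higher under waterlogging. Novel00088 had 52.3, 38.1 and 24.7 CPM under waterlogging, 20, 12 and 11.1 CPM under salinity and 23.9, 23.4 and 26.3 CPM in control. It fell under drought (log2FC -1.56), heat (-2.41) and cold (-1.72), and did not pass 2-fold under waterlogging (0.65).

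The members together took a small share of each library. It was 0.611% to 0.660% of the counts in control, 0.713% to 0.849% under drought, 0.652% to 0.753% under salinity, 0.911% to 1.36% under waterlogging, 0.593% to 0.665% under heat and 0.728% to 0.782% under cold. The drought, waterlogging and cold libraries all lay above every control library. These shares are the levels that the selection ranked, so they are given without a test. They are parts of plain library totals, without the TMM factors used for the levels above. Those factors were 1.35 to 1.36 in the cold libraries and 1.09 to 1.14 in control. The order of the groups on the TMM scale was not tested.

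These shares turned on single members. Novel00299 alone took 0.0737% to 0.0839% of the control counts and 0.352% to 0.817% of the waterlogging counts, and without it the members' share under waterlogging was 0.0116 percentage points below control in place of 0.517 above. Novel00105 took 0.00259% to 0.00437% in control and 0.131% to 0.243% under drought. Without both, the rest of the members took 0.531% ± 0.006 (SD, n = 3) of the drought counts and 0.559% ± 0.027 (SD, n = 3) of the control counts. On these plain totals, cold was then the one stress whose mean was above control, at 0.618% ± 0.005 (SD, n = 3). The TMM factors were highest in the cold libraries, so this place of cold holds for plain totals only.

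**Figure D4:**
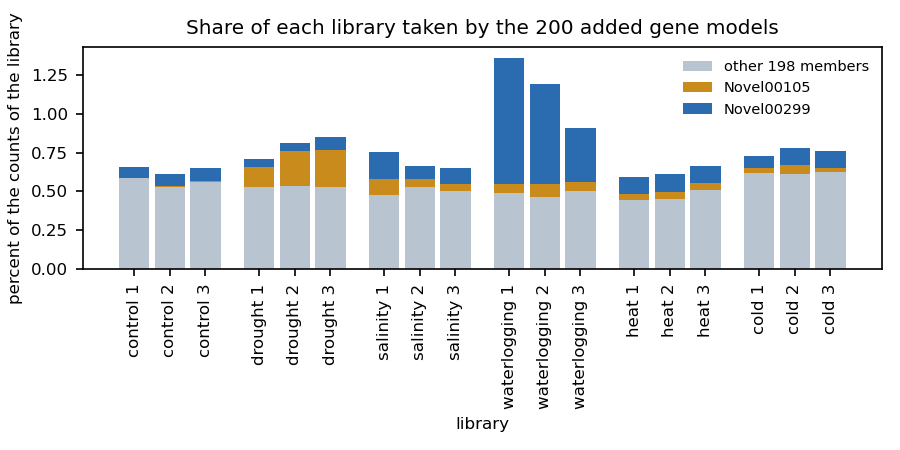
Percent of the counts of each library taken by the 200 added models, as stacked bars for Novel00299, Novel00105 and the rest of the members. The waterlogging bars (0.911% to 1.36%) exceed control (0.611% to 0.660%) through Novel00299, and the drought bars through Novel00105.

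Replicates of a group differed somewhat more in the members than in numbered genes of similar level. The biological coefficient of variation (BCV), edgeR's estimate of the spread between replicates beyond counting error, had a median of 0.167 in the members and 0.130 in those genes. In the lower 2 of the 4 level classes the medians were close, at 0.168 against 0.166 and 0.155 against 0.148. In the upper 2 they were 0.151 against 0.123 and 0.181 against 0.120. A BCV over 0.5 was found in 7 members (3.5%) and in 2.16% of the numbered genes of similar level. These 7 were Novel00241, Novel00067, Novel00023, Novel00098, Novel00324, Novel00274 and Novel00765.

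Novel00241 had the widest spread, with a BCV of 1.25. Its control libraries held 94.4, 1.18 and 91.9 CPM, its salinity libraries 3.26, 225 and 22.7 CPM, its heat libraries 52.3, 6.73 and 346 CPM, and its cold libraries 168, 31.9 and 19.9 CPM. Drought was low throughout, at 0.247, 2.56 and 0.553 CPM, and overlapped control replicate 2. The drought call (log2FC -5.86 ± 2.09, SE, n = 3, adjusted p = 0.0342, edgeR) was lost without control replicate 1 or 3 or any 1 of the drought libraries. Novel00098 also varied, with 15.6, 7.1 and 3.79 CPM under cold and 5.78, 5.24 and 10.0 CPM in control, and its 0, 1.24 and 0.842 CPM under waterlogging lay below every control library (log2FC -3.32, from -4.11 without waterlogging replicate 2 to -2.73 without waterlogging replicate 1). Its heat call (-2.48) was lost without control replicate 3, heat replicate 1 or heat replicate 2, and the value was -3.28 without heat replicate 3.

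Novel00067 and Novel00023, chosen for this comparison after their values were seen, had similar values library by library in control, salinity and waterlogging. In control they had 28.4, 29.8 and 7.44 CPM and 23.2, 29.5 and 6.83 CPM, under salinity 3.70, 18.1 and 27.1 CPM and 3.77, 16.2 and 24.8 CPM, and under waterlogging 0.533, 1.30 and 24.7 CPM and 0.799, 1.74 and 23.2 CPM. In each of these 3 groups, the same replicate was the lowest and the same one the highest in both models. Both fell under heat, where their replicates were not in the same order, to 0.437, 0.234 and 0.323 CPM and to 0.291, 0.655 and 0.184 CPM, with a log2FC of -6.02 ± 1.35 and -5.70 ± 1.24 (SE, n = 3, adjusted p = 0.00178 and 0.00144, edgeR). Novel00023 was at -6.35 without heat replicate 2. Neither passed the threshold under waterlogging, and both did without waterlogging replicate 3, at -4.55 and -3.95.

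That library also stood above its group in other members. Novel00765 had 1.73, 3.79 and 18.5 CPM under waterlogging and 59.0, 45.4 and 22.3 CPM in control, and its log2FC of -2.42 became -3.92 without waterlogging replicate 3. The drought call of Novel00765 (-1.90) was lost without control replicate 1 or 2 or drought replicate 1 or 3. Novel00274 had 0.133, 5.09 and 9.03 CPM under waterlogging and 14.3, 24.7 and 32.4 CPM in control (log2FC -2.34, and -3.16 without waterlogging replicate 3). For Novel00324 the waterlogging libraries were at 2.60, 1.61 and 10.7 CPM, and the log2FC of -3.52 became -4.73 without replicate 3. The library was instead the lowest of its group in Novel00299, Novel00105, Novel00769, Novel00345, Novel00201 and Novel00001, which rose under waterlogging, and in Novel00016, which fell. In Novel00406, which also rose, it was the highest. Waterlogging replicate 3 was the shallowest library, with 14839345 counts; the part of its depth in these values was not tested.

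The pair Novel00502 and Novel00501, with adjacent identifiers, also ran in parallel. Novel00502 had 258, 189 and 144 CPM in control and 259, 140 and 151 CPM under cold, and Novel00501 had 266, 157 and 138 CPM in control and 122 CPM in both later cold replicates. The first replicate was the highest of both groups in both models. Heat had the lowest mean for each, at 112, 121 and 118 CPM for Novel00502 (log2FC -0.75) and 82.6, 89.8 and 101 CPM for Novel00501 (-1.04, adjusted p = 0.00163, edgeR). The heat call of Novel00501 was lost without control replicate 1 (-0.69) or heat replicate 1 (-0.95). Whether the models of either pair lie in one transcript or share reads was not tested.

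**Figure D5:**
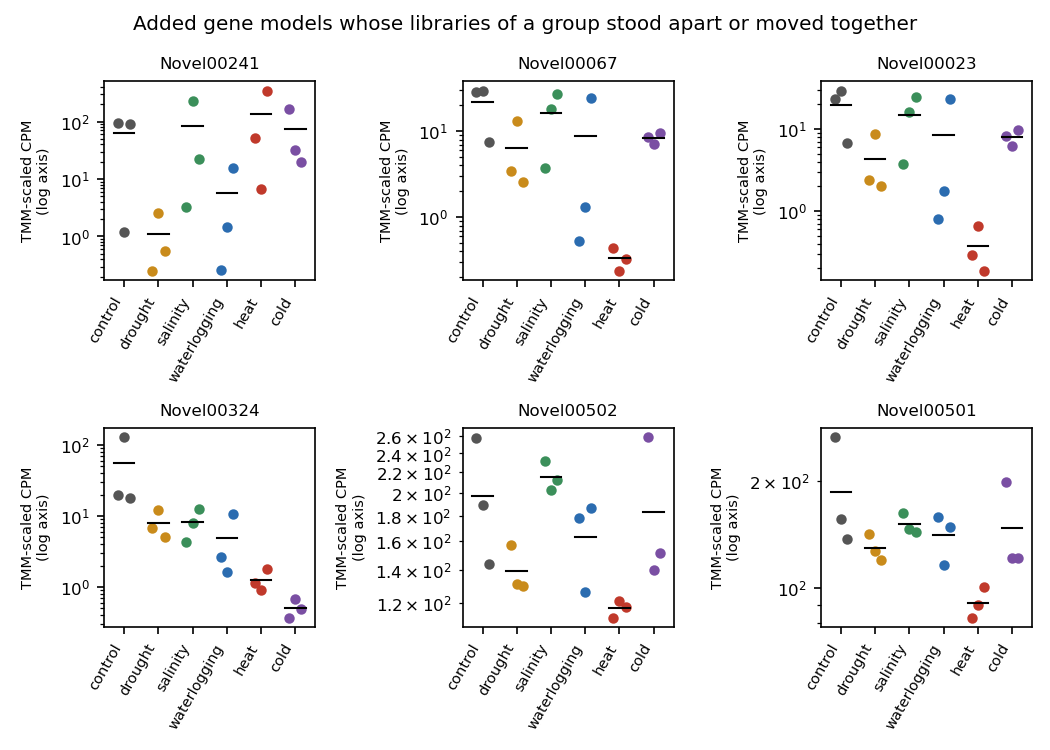
TMM-scaled CPM of 6 added models in each library (points in the order of replicates 1 to 3, log axis, a scale of its own in each panel), with the mean of each group as a line. Novel00241 spans 1.18 to 94.4 CPM within control, Novel00067 and Novel00023 show the same order of replicates within control, salinity and waterlogging, and Novel00502 and Novel00501 share a high first replicate in control and cold.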

How the data were processed

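Leaf RNA-seq libraries of 6 groups, 3 replicates each, were used. The authors aligned paired-end reads to the oil palm genome with TopHat2 (2 mismatches) and counted reads per gene with HTSeq; the deposited counts are whole and not normalized, and the authors' FPKM values divide them by gene length and library size. The sources used here give neither how the added models were assembled nor whether counting used strand, and overlapping, antisense and near-identical genes cannot be told apart. The members, gene lists and tests were chosen with earlier results of these data known.

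Counts were fitted in 1 model of all 18 libraries with edgeR 4.0.16 (R 4.3.3; filterByExpr, TMM, quasi-likelihood test, 12 residual degrees of freedom), and p-values were adjusted over all 23830 genes tested. The SE is the absolute log2FC divided by the square root of F. The procedure was tested on simulated counts. Printed CPM uses TMM-adjusted totals; the rule's CPM uses plain totals. Lengths came from counts and FPKM and were whole numbers (within 0.01 nt) in all 200 members. Named members were the 10 most abundant, the 3 largest DEGs per stress and direction with at least 5 CPM in a group and all 9 library pairs in agreement, up to 4 per direction among those called under all 5 stresses, those opposed between heat and cold, the 4 most stable, those at the rank limit, and those with 1 library above 50% of their CPM; all other named members were chosen after their values were seen. Alternatives were other scalings, no filter, DESeq2 1.42.0, limma 3.58.1 on log2(FPKM + 0.1), separate fits, a replicate block, other thresholds, leaving out each library and, added after seeing the data, the members also ranked in control.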

Additional observations from a re-analysis of the deposited data

How the results depend on the processing

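No called value of a named member changed direction under any alternative, and counts of calls stayed within 1.5 times the main count with DESeq2's size factors, DESeq2, no filter, separate fits and each library left out. With library totals, 20 members were higher and 30 lower under drought, 38 lower under salinity and 52 lower under waterlogging; limma on log2(FPKM + 0.1) gave 20, 28, 36 and 54. With adjusted p alone, higher and lower members numbered 58 and 48 under drought, 55 and 46 under salinity, 56 and 59 under waterlogging and 46 and 74 under cold, with 60 higher under heat, 36 called under all 5 stresses, 105 different between heat and cold, 57 between drought and waterlogging and 670 differences over the other pairs of stresses. Testing against the 2-fold minimum (glmTreat) left 16 and 3 under drought, 14 and 4 under salinity, 18 and 9 under waterlogging, 13 and 21 under heat and 11 and 23 under cold, 3 under all 5 stresses, 19 and 7 in those 2 pairs and 141 over the other pairs. A replicate block gave 33 and 15 under drought, 31 and 18 under salinity, 29 and 29 under waterlogging, 22 and 43 under heat, 24 and 41 under cold and 11 under all 5 stresses. The labels give same-numbered libraries only a shared number. Their deviations had a median correlation of -0.02 over 45 pairs, with 12 over 0.1, and 6 of 18 libraries were closest to their own number. These values do not show whether libraries of a number shared a batch. The block ended the cold call of Novel00255 (adjusted p = 0.0596), the heat call of Novel00501 (log2FC -0.98) and the drought call of Novel00241 (adjusted p = 0.0696), and separate edgeR fits ended the heat calls of Novel00368, Novel00517 and Novel00390, the waterlogging calls of Novel00765, Novel00398 and Novel00274, and the drought and cold calls of Novel00078. The members' share minus control was -0.0116 points under waterlogging and -0.0502 under heat without Novel00299, and on summed FPKM 0.0938 under salinity, 1.17 under waterlogging and 0.179 under cold. Causes were not tested where the setting's own construction does not show them. With 3 libraries a group, a member that missed the threshold is not shown to have kept its level.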
